A study of Homo sapiens with 80 samples.

Results

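The 10 genes described here code for the muscle actins and for proteins of the smooth muscle contractile apparatus: ACTC1, ACTA1, ACTA2, ACTG2, TAGLN, CNN1, CALD1, MYLK, TPM1 and TPM2. They are 10 of the 43388 genes in the expression tables, and all 10 were taken by name. They were chosen by their levels in these same tables, with the differences between high and low purity differentiations of the multi-omic experiment known. Changes over days and stages in both experiments came from the same tables. All values of the 10 genes are therefore given as a description, without p-values. A change is said to be called where a fit over all genes gave an adjusted p under 0.05 and a log2 fold change of at least 1 in size. For these 10 genes, a call and the words rose and fell only label a change that large against the spread between samples, and support nothing. All 10 genes passed the filters on low values in both experiments.

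Muscle cells build their thin filaments from actins that differ by tissue: ACTC1 is the main actin of cardiac muscle, ACTA1 of skeletal muscle, ACTA2 of vascular smooth muscle and ACTG2 of enteric smooth muscle. Developing heart muscle is known to use smooth muscle and skeletal actins alongside the cardiac one, and ACTA2 is also made by activated fibroblasts, so none of these transcripts marks 1 cell type alone. TAGLN (transgelin), CNN1 (calponin), CALD1 (caldesmon) and the tropomyosins TPM1 and TPM2 bind actin filaments, and MYLK is the kinase that phosphorylates myosin light chain to start smooth muscle contraction.

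Human pluripotent stem cells were turned into cardiomyocytes by activating WNT signalling with CHIR99021 on day 0 and blocking it with IWP2 on day 2 (line WTC11) or day 3 (lines IMR90-4 and H9). Flow cytometry for cardiac troponin T at the end of each differentiation set its class, high or low purity. The multi-omic experiment has 56 poly(A) RNA libraries of WTC11, an induced pluripotent line: 25 wells of 1 high purity differentiation at passage 52 and 31 wells of 1 low purity differentiation at passage 69, taken from day 0 to day 16. Each class had 4 wells every 2 days up to day 6. High and low purity then had 3 and 4 wells on day 8, 1 and 4 on day 10, which was left untested, 2 and 4 on day 13, and 3 and 3 on day 16. The RNA-only experiment has 24 total RNA libraries, 1 for each of 4 stages (days 0, 2 to 3, 4 to 5 and 6 to 7) in 1 high and 1 low purity differentiation of each line. WTC11 was at passages 81 (high) and 69 (low). IMR90-4, also induced pluripotent, was at 55 (high) and 75 (low), and H9, an embryonic stem cell line, at 58 (high) and 55 (low). In the multi-omic experiment purity, passage and the differentiation itself cannot be told apart. The wells of a class come from 1 differentiation, so p-values there measure the spread between wells only. All libraries are of whole wells, in which fewer cells of a type and less RNA per cell cannot be told apart.

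Library depth was 6579715 to 18143597 reads in the multi-omic experiment, recovered from the deposited TPM (reads per length, scaled to the same total in each library), and 17990882 to 40357968 reads in the RNA-only experiment. The multi-omic count table was not used for the results, because its column names do not pair with those of the TPM table. Reads and TPM of equal name matched for 0 of 56 columns, whereas 50 count columns matched a TPM column named for another well. By TPM column, the most similar other library belonged to the same class and day for 54 of 55 libraries, against 28 of 55 by count column. Of the 32 TPM columns of days 0 to 6, all 32 were closest to an RNA-only WTC11 library of the same day, against 6 of 32 count columns. These checks bear on the day and on the grouping of wells, not on which class is which. The class of the closest RNA-only library often differed. On day 4 all high purity wells were closest to the low purity library, and all low purity wells to the high purity one. Results below therefore rest on the TPM column names. TNNT2, the troponin T gene behind the purity measure, was at 2867 to 3702 TPM in the high and 827 to 1227 TPM in the low purity wells of day 16.

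Several of these genes are textbook targets of serum response factor (SRF), which binds a sequence called the CArG box. To show where the genes carry it, the RefSeq windows from 250 bases before to 50 bases after each annotated start were searched for the strict CArG box, which reads the same on both strands and was the only motif searched. Of the 10 genes, 9 had a window (TAGLN had none), and 4 of these 9 held a match, in 4 of their 16 windows. Over all genes 1.60% of 27305 held one, and 1.29% of 35116 windows. The matches are printed 5′ to 3′ on the gene's own strand with 10 bases on each side, the box in capitals (RefSeq, GRCh38.p14).
ACTC1: gcgaaggggaCCAAATAAGGcaaggtggca
ACTA1: tgcccaacacCCAAATATGGctcgagaagg
ACTG2 first box: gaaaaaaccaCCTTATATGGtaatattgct
ACTG2 second box: cgtcagctggCCTTTTTAGGgactttgttt
MYLK: ataaaccatcCCTTTTATGGgagttgaagc
The stretches lie at chr15:34795639-34795668 (minus strand) for ACTC1, chr1:229434172-229434201 (minus) for ACTA1, chr2:73892888-73892917 and chr2:73892925-73892954 (plus) for ACTG2, and chr3:123620623-123620652 (minus) for MYLK. The boxes begin 109, 97, 110, 73 and 94 bases before the RefSeq start, in the order printed. The ACTC1, MYLK and second ACTG2 stretches overlap an exon of the same gene in GENCODE v29, since that annotation starts some transcripts further upstream. The MYLK stretch lies deep inside the gene, which on its minus strand begins at 123884331 and ends at 123610049. The RefSeq start beside this box is thus an internal one, and the box is not at the 5′ end of the MYLK gene. A match is a description of the sequence, not evidence of binding, and the windows of ACTA2, CNN1, CALD1, TPM1 and TPM2 without one say only that these letters are not there.

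ACTC1 (chr15:34788095-34795726, GENCODE v29 on GRCh38, as for the genes below) made its largest rise a sampling day earlier in the low purity differentiation than in the high purity one. On day 2 the 8 wells held 19.4 to 24.8 TPM. On day 4 the high purity wells stood at 61.0, 49.2, 61.6 and 64.5 TPM and the low purity wells at 1916, 1537, 1453 and 2022 TPM, so the groups lay far apart. From day 2 to day 4 ACTC1 rose in the low purity wells by 6.12 ± 0.15 on the log2(TPM + 1) scale (± SE of the fit, as for the fold changes below). In the high purity wells it rose by 1.26 ± 0.15 over that step. The high purity wells then rose by 4.64 ± 0.15 to day 6, while the low purity change of -0.60 ± 0.15 was under the size of 1 that a call needed. On day 6 the classes overlapped, at 1149 to 1940 TPM (high) and 886 to 1332 TPM (low). On day 8 both were at their highest, 3309 to 3765 TPM (high) and 1707 to 2888 TPM (low). On day 16 they stood at 1667 to 1781 and 1170 to 1633 TPM, without overlap.

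The day 4 difference in ACTC1, a log2 fold change (high minus low) of -4.84 ± 0.15, was the only one called for this gene. After day 6 the high purity wells were the higher ones, by 0.89 ± 0.16 (day 8), 0.79 ± 0.18 (day 13) and 0.53 ± 0.17 (day 16). TPM1 behaved in a like way on day 4: this tropomyosin of striated and smooth muscle (chr15:63042632-63071915) stood at 104 to 128 TPM (high) and 711 to 774 TPM (low), a log2 fold change of -2.68 ± 0.08. By day 6 TPM1 was at 718 to 997 and 917 to 968 TPM, and its differences on the other tested days were under the size for a call. Under the column names of the multi-omic count table the ACTC1 difference of day 4 would be +0.61, so its direction rests on the TPM names. Cardiomyocyte genes in the same wells moved in part with these 2: the summed TPM of 10 of them (TNNT2, MYH6, MYH7, MYL2, MYL7, TNNI1, TNNI3, TNNC1, TTN and ACTN2) was 220 to 259 in the high and 1401 to 1580 in the low purity wells of day 4. Of these 10, 7 were called lower in the high purity wells, beside 4.22% of all genes. TNNI3 overlapped, at 33.2 to 44.1 (high) and 29.6 to 46.0 TPM (low). MYH7 and MYL2 reached at most 0.465 and 0.417 TPM on that day. The part of the cardiomyocyte genes in the differences of ACTC1 and TPM1 was not tested.

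**Figure D1:**
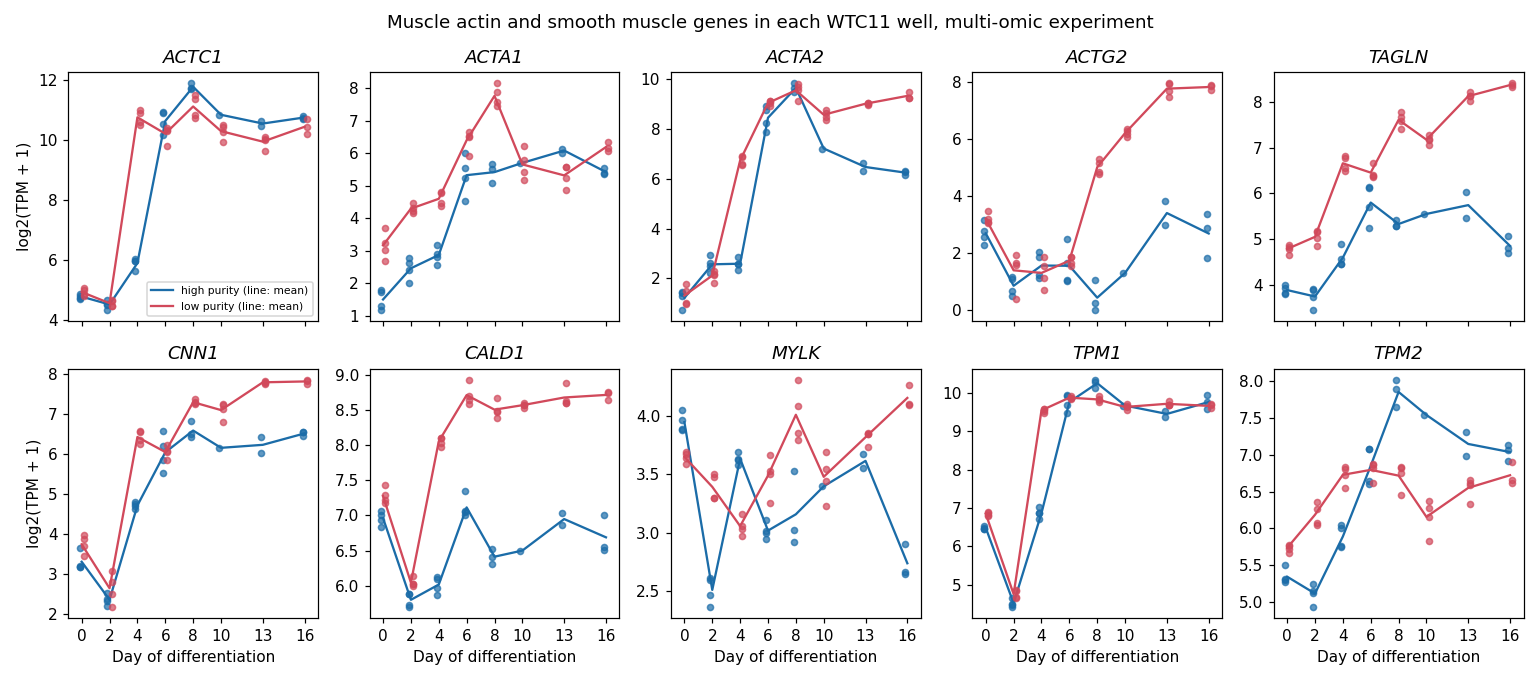
Each point is 1 WTC11 well of the multi-omic experiment, with the day of differentiation on the x axis and log2(TPM + 1) on the y axis; lines join the means of the high (blue) and low (red) purity wells. On day 4 the ACTC1 points lie at 49.2 to 64.5 TPM in the high and 1453 to 2022 TPM in the low purity wells, and on day 16 the ACTA2, ACTG2 and TAGLN points of the classes are apart.

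ACTA2 (chr10:88935074-88991339), the vascular smooth muscle actin, made its largest rise over the same step as ACTC1 in each differentiation and later fell in the high purity one. In the low purity wells ACTA2 rose further from day 4 to day 6, to 480 to 553 TPM, while ACTC1 did not rise. On day 4 ACTA2 was at 4.04 to 6.17 TPM (high) and 92.4 to 120 TPM (low), a log2 fold change of -4.13 ± 0.18. It rose by 5.77 ± 0.18 between days 4 and 6 in the high purity wells and reached 714 to 915 TPM on day 8. The low purity wells of that day were at 562 to 907 TPM, so the classes overlapped. From day 8 to day 16 ACTA2 fell by 3.20 ± 0.21 in the high purity wells, while the change in the low purity wells was 0.00 ± 0.19. On day 16 the 3 high purity wells held 76.0, 77.3 and 69.7 TPM and the 3 low purity wells 722, 608 and 602 TPM, a log2 fold change of -2.88 ± 0.21. The 1 high purity well of day 10 was already at 147 TPM, against 329 to 437 TPM in the 4 low purity wells.

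ACTG2 (chr2:73892314-73919865), the enteric smooth muscle actin, was the last of the 4 to rise above its day 0 level and reached higher levels in the low purity wells. Up to day 6 no well of either class held more than 10.0 TPM, and the highest values were those of day 0 (3.87 to 8.01 TPM high, 7.37 to 10.0 TPM low). From day 0 to day 2 ACTG2 fell in both classes, by 1.89 ± 0.31 (high) and 1.96 ± 0.31 (low). In the low purity wells it rose from day 6 to day 8 by 3.25 ± 0.31 and from day 8 to day 16 by 3.04 ± 0.34. The low purity wells thus went from 26.2 to 38.3 TPM on day 8, through 65.7 to 80.1 on day 10 and 178 to 249 on day 13, to 209 to 241 TPM on day 16. The high purity wells were listed at 0, 0.191 and 1.05 TPM on day 8 and held 9.42, 2.51 and 6.27 TPM on day 16, a rise of 2.48 ± 0.36 to a level far under that of the low purity wells. The high minus low log2 fold change was -4.41 ± 0.34 (day 8), -4.19 ± 0.38 (day 13) and -4.97 ± 0.36 (day 16). On day 16 it was larger in size than that of the other 9 genes.

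ACTA1 (chr1:229431245-229434098), the skeletal muscle actin, differed between the classes from the undifferentiated cells on. On day 0 it was at 1.45, 1.26, 2.41 and 2.34 TPM in the high and 7.12, 8.41, 11.9 and 5.47 TPM in the low purity wells, with no overlap. Few reads stand behind these ACTA1 values, 8 to 18 per well (high) and 26 to 40 (low). Its log2 fold changes were -1.74 ± 0.24 (day 0), -1.78 ± 0.24 (day 2), -1.72 ± 0.24 (day 4), -1.09 ± 0.24 (day 6, where 1 high purity well overlapped the low ones) and -2.12 ± 0.26 (day 8). The low purity wells peaked on day 8 at 174 to 284 TPM, against 33.1 to 49.5 TPM, and fell by 1.35 ± 0.26 to day 16. On day 13 the order was the other way round, at 63.8 and 69.6 TPM in the 2 high and 28.3 to 47.1 TPM in the 4 low purity wells (+0.95 ± 0.29, not called). On day 16 the low purity wells were again above, at 66.4 to 79.5 against 39.6 to 45.2 TPM (-0.55 ± 0.28, not called). The day 6 call was lost when high purity well 3 (-0.83) or low purity well 3 (-0.99) was left out. Of the regulators of skeletal muscle, MYOD1 reached at most 0.692 TPM and MYOG 2.55 TPM in any multi-omic well, while MYF5 reached 16.0 and MYF6 24.2 TPM. On day 4 MYF6 was at 11.3 TPM or more in the high and 2.86 to 4.87 TPM in the low purity wells, and MYF5 at 6.00 to 9.34 and 1.10 to 2.92 TPM. On day 16 both were listed at 0 in all 6 wells. The list of 9 skeletal muscle genes also held CKM, MYH3, TNNT3, TNNI2 and ACTN3, and 8 of the 9 could be tested. On days 8 and 16, 2 were called higher in the high purity wells (beside 4.66% and 5.76% of all genes) and 0 lower. CKM ran the other way from ACTA1 on day 8, at 206 to 258 TPM (high) and 30.0 to 70.2 TPM (low).

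Counted together, the 4 muscle actins gave a summed mean of 35.5 ± 2.8 TPM (SD, n = 4) in the high and 47.8 ± 2.2 TPM (n = 4) in the low purity wells of day 0, and 1834 ± 60.0 (n = 3) and 2336 ± 172 TPM (n = 3) on day 16. TPM is per length, so shares of that sum can be compared between genes only as far as the lengths used fit the transcripts present. Which lengths were used is not given in the sources used here. On day 16 ACTC1 made up 93.3% ± 0.3 (SD, n = 3) of the sum in the high purity wells, with ACTA2 at 4.06% ± 0.35, ACTA1 at 2.28% ± 0.10 and ACTG2 at 0.33% ± 0.19. In the low purity wells ACTC1 made up 59.4% ± 5.7 (n = 3), ACTA2 27.8% ± 4.5, ACTG2 9.81% ± 1.38 and ACTA1 3.08% ± 0.06. In recovered reads, which are not per length, the low purity shares of that day came to 76.2% for ACTC1, 17.6% for ACTA2, 4.57% for ACTG2 and 1.60% for ACTA1. By TPM, the ACTC1 share spanned 93.1% to 93.6% in one class and 53.2% to 64.6% in the other.

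The ACTC1 shares of the classes lay closer together on days 4 and 8 than on day 16. On day 8 ACTC1 was at 80.4% ± 0.8 (n = 3) and ACTA2 at 18.6% ± 1.0 in the high purity wells, against 68.7% ± 2.1 (n = 4) and 23.5% ± 2.3 in the low purity wells. On day 4 the order was reversed, with ACTC1 at 81.3% ± 3.0 (high, n = 4) and 92.9% ± 0.4 (low, n = 4). On day 2 the sum was only 32.5 ± 2.3 (high) and 46.6 ± 1.7 TPM (low). ACTA1 was then at 14.2% ± 4.0 (high) and 40.0% ± 3.4 (low), and ACTC1 at 67.9% ± 3.8 and 48.9% ± 2.3. As a ratio, ACTA2 per ACTC1 went in the high purity wells from 23.2% on day 8 to 4.35% on day 16, and in the low purity wells from 34.3% to 47.6%.

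**Figure D2:**
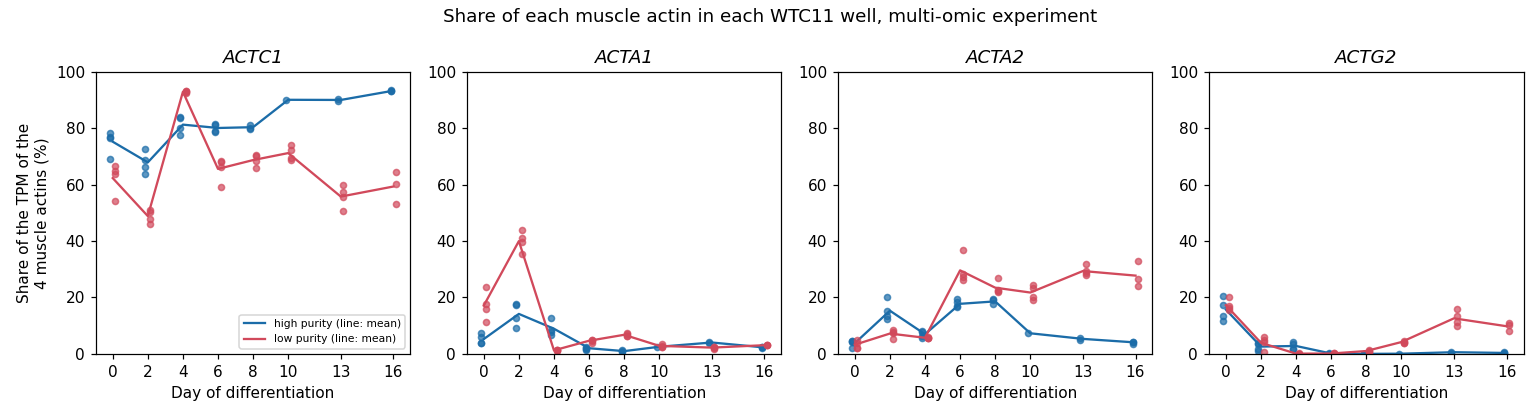
Share of each muscle actin in the summed TPM of the 4 (y axis, percent) by day of differentiation (x axis) in each WTC11 well, with lines through the means of the high (blue) and low (red) purity wells. On day 16 the ACTC1 points lie between 93.1% and 93.6% in the high and between 53.2% and 64.6% in the low purity wells.

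TAGLN (chr11:117199321-117204782), an actin-binding protein of smooth muscle and an early marker of that lineage, was higher in the low purity wells from day 0 on. It stood at 13.1 to 15.0 TPM (high) and 24.3 to 28.4 TPM (low) on day 0, which missed a call with a log2 fold change of -0.96 ± 0.12. It was called on days 2 (-1.23 ± 0.12), 4 (-2.05 ± 0.12), 8 (-2.04 ± 0.13), 13 (-2.18 ± 0.15) and 16 (-3.29 ± 0.14). The wells of day 16 were at 25.1, 32.5 and 26.9 TPM (high) and 319, 337 and 327 TPM (low), with no overlap. In the low purity wells TAGLN rose by 1.55 ± 0.12 from day 2 to day 4 and by 1.15 ± 0.12 from day 6 to day 8. In the high purity wells its change of 1.12 ± 0.12 from day 4 to day 6 was the one step called (0.98 and no call without well 4 of day 6). The step before it, from 10.1 to 14.1 TPM on day 2 to 21.0 to 28.9 TPM on day 4, was 0.73 ± 0.12, under the size for a call.

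CALD1 (chr7:134744252-134970728), which blocks the actin-myosin interaction, was also expressed in the undifferentiated cells, at 114 to 133 TPM (high) and 144 to 171 TPM (low). It fell to day 2 by 1.19 ± 0.09 (high) and 1.39 ± 0.09 (low). In the low purity wells it then rose by 1.95 ± 0.09 to day 4, to 249 to 274 TPM, while the high purity wells stayed at 57.6 to 68.9 TPM. The high minus low log2 fold change was between -1.54 and -2.03 on days 4, 6, 8, 13 and 16, called on each, with no overlap of the wells. On day 16 the wells were at 92.9, 127 and 89.8 TPM (high) and 430, 398 and 427 TPM (low).

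CNN1 (chr19:11538717-11550323), a calponin that inhibits the myosin ATPase, was called lower in the high purity wells on days 4 (-1.71 ± 0.16), 13 (-1.37 ± 0.20) and 16 (-1.08 ± 0.19). On day 6 it was at 44.6 to 94.6 TPM (high) and 56.7 to 73.9 TPM (low), which overlapped fully. It rose from day 2 to day 4 in both classes, by 2.26 ± 0.16 (high) and 3.73 ± 0.16 (low), and from day 6 to day 8 by 1.24 ± 0.16 in the low purity wells. On day 16 it stood at 85.8 to 92.4 TPM (high) and 215 to 230 TPM (low).

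MYLK (chr3:123610049-123884331) kept low levels of 4.16 to 18.8 TPM in all 56 wells. On day 4 it was higher in the high purity wells (11.4 ± 0.4 against 7.33 ± 0.47 TPM, SD, n = 4 each; +0.58 ± 0.10, not called), and its only call between the classes was on day 16, at 5.28 to 6.48 TPM (high) and 16.1 to 18.2 TPM (low), a log2 fold change of -1.23 ± 0.11. Its fall from day 0 to day 2 was called in the high purity wells (-1.47 ± 0.10), and its rise of 1.02 ± 0.10 to day 4 in the same class was at the edge of a call. That rise came to 0.98 with the other scaling and to 0.96 or 0.99 without well 2 of day 2 or well 2 of day 4.

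TPM2 (chr9:35681992-35690121), the tropomyosin of slow skeletal and smooth muscle, was the 1 gene of the 10 to be called in both directions. On day 2 it was at 29.7 to 36.8 TPM (high) and 65.1 to 81.3 TPM (low), a log2 fold change of -1.00 ± 0.12 that fell short of a call without high purity well 2 (-0.93), low purity well 3 (-0.94) or low purity well 4 (-0.99). On day 8 it was at 200 to 258 TPM (high) and 86.5 to 114 TPM (low), +1.37 ± 0.13. In the high purity wells TPM2 rose by 1.25 ± 0.13 from day 6 to day 8. The day 16 difference was +0.53 ± 0.14, with 120 to 139 TPM against 97.1 to 118 TPM. TPM1, its paralog, shared the fall from day 0 to day 2, by 2.00 ± 0.08 (high) and 2.26 ± 0.08 (low), which TPM2 did not (-0.26 ± 0.12 and +0.29 ± 0.12).

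**Figure D3:**
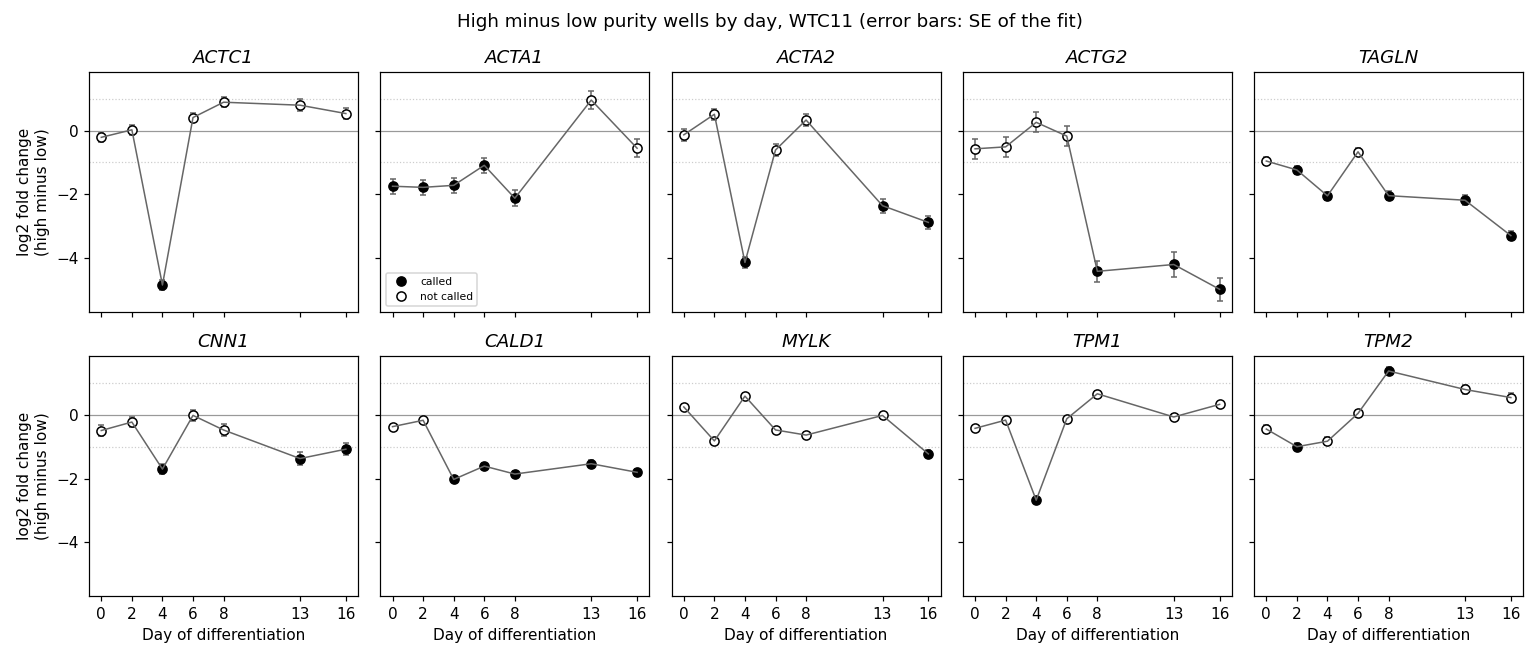
Log2 fold change between high and low purity wells on the log2(TPM + 1) scale (y axis, high minus low) by day of differentiation (x axis) for each gene; bars are the SE of the fit, filled points were called and dotted lines mark a size of 1. ACTC1 and TPM1 are called on day 4 alone, at -4.84 and -2.68, whereas ACTG2 reaches -4.97 and TAGLN -3.29 on day 16.

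Counted by day, the members called between the classes were 1 of 10 on day 0, beside 1.07% of the 25664 genes tested, and 3 on day 2, beside 5.33%. The count was 7 for day 4 (7.84% of all genes) and 2 for day 6 (8.8%). It was 5 both for day 8 (12.2%) and for day 13 (10.8%), and 6 at day 16 (13.4%). All were lower in the high purity wells except TPM2 on day 8. The genes were listed with these differences known, so nothing is read from these shares. Within the differentiations, 4 of 10 rose from day 2 to day 4 in the high purity wells, beside 6.73% of all genes called higher, and 6 in the low (8.17%). From day 4 to day 6, 7 rose in the high (4.53%) and 2, ACTA1 and ACTA2, in the low purity wells (3.88%). From day 6 to day 8, 3 rose in the high (2.87%) and 4 in the low (2.03%). From day 8 to day 16 ACTG2 rose and 1 other gene fell in each class, ACTA2 in the high (11.4% of all genes called in either direction) and ACTA1 in the low (6.39%). From day 0 to day 2, 4 fell and 1, ACTA2, rose in the high purity wells (16.7% in either direction), and 4 fell in the low (17.9%). These steps use the same wells as the comparison of the classes, and nothing is read from their counts either.

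Antisense genes and paralogs limit some of these values. In GENCODE v29, 30.1% of the exonic bases of ACTA2 and 21.4% of those of TPM1 lie opposite exons of other genes (ACTA2-AS1 and FAS, and TPM1-AS and AC079328.2), 11.4% in TAGLN (PCSK7), 7.97% in ACTC1 and 1.04% in MYLK. Both library kits mark strand, and whether the counting used it is not given in the sources used here. TPM1-AS stood at 212 ± 18.2 TPM (SD, n = 3) in the high and 305 ± 21.9 TPM (n = 3) in the low purity wells of day 16, and ACTA2-AS1 at 1.78 ± 0.23 and 9.77 ± 2.15 TPM. The coding parts of the 4 muscle actins are near copies of each other, and how reads that match several genes were counted is not given in the sources used here.

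The other smooth muscle genes on a list of 10 (MYH11, SMTN, LMOD1, SYNPO2, MYL9, CSRP1, PDLIM7, DES, SYNM and MYL6) moved in part with the 10 described. Of the 9 that could be tested, 3 were called lower in the high purity wells on day 16, beside 7.65% of all genes: SYNPO2, PDLIM7 and CSRP1, with log2 fold changes of -2.29 ± 0.13, -2.22 ± 0.11 and -1.21 ± 0.16 (limma adjusted p = 1.1e-18, 3.7e-21 and 2.3e-08). The median over the 9 was -0.64, beside 0.00 over all genes. On day 4, 2 of 9 were called lower, beside 4.22% of all genes: LMOD1 (-3.27 ± 0.16) and MYL9 (-1.58 ± 0.11), with adjusted p-values of 6.7e-21 and 6.2e-16. SYNPO2, which codes for an actin-bundling protein, reached 124 to 130 TPM in the low and 21.2 to 22.2 TPM in the high purity wells of day 16. MYH11, the smooth muscle myosin heavy chain and the defining marker of mature smooth muscle, was listed at 0 in all 56 multi-omic wells and reached at most 0.0162 TPM in the RNA-only libraries. A value at or near 0 can be a failed estimate in both experiments: POU5F1, a gene of undifferentiated pluripotent cells, was at most 0.804 TPM in the multi-omic wells, day 0 included. In the RNA-only libraries of day 0 its median was 1.03 (high) and 0.844 TPM (low), and its highest values were 181 and 190 TPM. The MYH11 values of both experiments carry this limit.

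Among SRF and 6 of its partners, MYOCD (myocardin, the cardiac and smooth muscle coactivator of SRF) differed in opposite directions on days 4 and 16. It was at 25.0 to 44.2 TPM (high) and 125 to 145 TPM (low) on day 4 (-1.99 ± 0.16 as log2 fold change, limma adjusted p = 1.0e-13). On day 16 it stood at 103 to 115 TPM (high) and 35.4 to 47.7 TPM (low), +1.55 ± 0.19 (adjusted p = 3.5e-09). On that day FHL2 was also called higher in the high purity wells (+2.01 ± 0.23, adjusted p = 7.6e-10). TGFB1I1 was called lower (-1.01 ± 0.24, adjusted p = 0.00049), at the edge of the size for a call. With MYOCD these were the 3 calls of the 7 genes, 2 higher and 1 lower, beside 5.76% and 7.65% of all genes. FHL2 and TGFB1I1 are LIM-domain partners of transcription factors. ACTA2 and ACTG2 were lower in the high purity wells on that day, in which MYOCD was higher.

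The non-muscle relatives of the members differed late. Of 8 genes (ACTB, ACTG1, TPM3, TPM4, CNN2, CNN3, TAGLN2 and TAGLN3), 4 were called lower in the high purity wells on day 13 (beside 6.23% of all genes) and 5 on day 16 (beside 7.65%), with a day 16 median of -1.77 beside 0.00 over all genes. The cytoplasmic actin ACTB stood at 841 to 1205 TPM (high) and 6450 to 6603 TPM (low) on day 16. The log2 fold changes were -2.47 ± 0.09 for ACTB and -2.53 ± 0.09 for ACTG1 (each with a limma adjusted p = 4.7e-26). From day 8 to day 16, ACTB, ACTG1 and TPM3 fell in the high purity wells, by 1.49 ± 0.09, 1.25 ± 0.09 and 1.55 ± 0.07 (adjusted p = 3.4e-18, 1.9e-15 and 7.1e-22). In the low purity wells the 3 changes over this step were +0.23 ± 0.08, +0.84 ± 0.09 and -0.32 ± 0.07, under the size for a call.

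Markers of fibroblasts and of the epicardium moved with the late difference, and those of pericytes and endothelium did so only in part. The summed TPM of 8 fibroblast and stromal genes (COL1A1, COL1A2, COL3A1, LUM, DCN, POSTN, PDGFRA and THY1) was 576 to 691 in the high and 9701 to 13180 in the low purity wells of day 16, and 7 of the 8 were called lower in the high purity wells, beside 7.65% of all genes; PDGFRA was not. DCN, a defining one, was at 0.346 to 0.941 TPM (high) and 88.0 to 154 TPM (low). The sum of 6 epicardial genes (WT1, TBX18, TCF21, ALDH1A2, UPK3B and BNC1) was 18.3 to 22.9 and 412 to 562 TPM, with all 6 called lower. The sum of 5 pericyte genes (PDGFRB, RGS5, CSPG4, NOTCH3 and KCNJ8) was 60.1 to 72.3 and 134 to 155 TPM, with 1 called lower. That of 5 endothelial genes (PECAM1, CDH5, KDR, TEK and ESAM) was 35.7 to 41.6 and 156 to 235 TPM, with 3 called higher and 2 lower in the high purity wells, beside 5.76% and 7.65% of all genes. KDR was the largest part of that sum, at 28.4 to 29.1 (high) and 117 to 189 TPM (low), while PECAM1, CDH5 and ESAM were higher in the high purity wells. The cardiomyocyte sum ran the other way from the sums above, at 12753 to 14886 (high) and 4609 to 6815 TPM (low). Of its 10 genes, 7 were called higher in the high purity wells, beside 5.76% of all genes. MYH7, MYL2 and MYL7 overlapped, at 646 to 821, 7.15 to 9.27 and 1865 to 2086 TPM (high). In the low purity wells these 3 were at 528 to 1186, 7.38 to 19.8 and 1757 to 2233 TPM. What part these cells had in the differences of ACTA2, ACTG2, TAGLN, CALD1, CNN1 and MYLK was not tested.

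ACTC1, ACTA2 and 5 more of the 10 genes rose from days 4 to 5 to days 6 to 7 across the 3 lines of the RNA-only experiment. edgeR's quasi-likelihood test over the 6 differentiations, each against its own earlier stage, called 7 of 10 higher, beside 2.73% of the 23848 genes tested, from which nothing is read since the genes were listed with these values known. ACTC1 went from 3.79 to 122 TPM (H9 high), 3.53 to 7.11 (H9 low), 12.4 to 260 (IMR90-4 high), 6.17 to 616 (IMR90-4 low), 8.39 to 122 (WTC11 high) and 6.03 to 113 TPM (WTC11 low), a log2 fold change of 4.68 ± 0.76. It was higher at the later stage in 6 of 6 differentiations, least so in the low purity H9 one. ACTA2 went from 0.391 to 6.79 TPM at days 4 to 5 to 22.3 to 157 TPM at days 6 to 7, a log2 fold change of 5.61 ± 0.78, and was higher in 6 of 6.

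The other 5 were ACTA1 (4.15 ± 0.79), TPM1 (2.60 ± 0.41), TAGLN (2.08 ± 0.45), CNN1 (1.70 ± 0.31) and CALD1 (1.13 ± 0.23), each higher in 6 of 6 differentiations. ACTG2, TPM2 and MYLK were not called, with log2 fold changes of 1.49 ± 0.69, 0.70 ± 0.21 and -0.08 ± 0.26. These calls depend on 1 line: without IMR90-4, 1 of the 10 (ACTC1) was called, and 0.0922% of all genes tested. From day 0 to days 2 to 3, CALD1 (-1.82 ± 0.23), ACTG2 (-2.41 ± 0.61) and TPM1 (-1.60 ± 0.40) fell, beside 10.8% of all genes called lower. The fall of these 3 was also called in both multi-omic differentiations. Without IMR90-4, CALD1 alone was called, and TPM1 was not called without WTC11 either. From days 2 to 3 to days 4 to 5 TPM1 alone rose (1.84 ± 0.39; 3.57% of all genes were called higher), a call lost without IMR90-4.

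**Figure D4:**
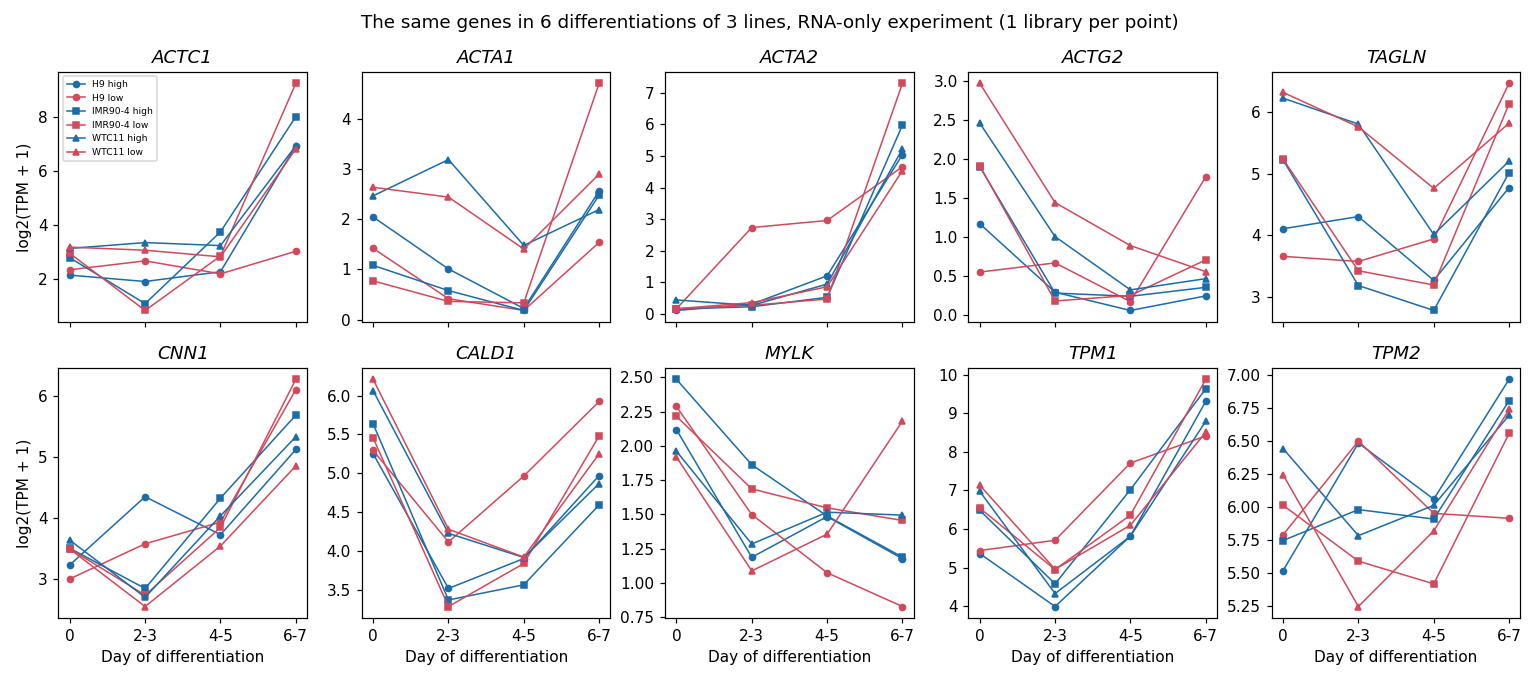
The 10 genes in the RNA-only experiment, with the stage in days of differentiation on the x axis and log2(TPM + 1) on the y axis; each point is 1 library, circles are H9, squares IMR90-4 and triangles WTC11, with high purity in blue and low purity in red. The ACTC1 points of days 6 to 7 run from 7.11 TPM (H9 low) to 616 TPM (IMR90-4 low).

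Between the purity classes of the RNA-only experiment, with cell line as the replicate, edgeR called 0 of the 10 genes at each of the 4 stages, beside 0% of all genes. At an unadjusted p under 0.05 there were 354, 1896, 1798 and 2876 of the 23848 genes at the 4 stages in order, among them 0, 2, 2 and 4 of the 10. Nothing is read from these counts, since the genes were listed with these values known. TAGLN at days 6 to 7 was higher in the low purity library in 3 of 3 lines: 26.4 and 87.4 TPM in H9, 31.4 and 69.2 in IMR90-4, and 35.9 and 55.5 in WTC11 (high first). Its log2 fold change was -1.17 ± 0.26, and it was the 1 gene of the 10 that DESeq2 called between the classes at any stage, a call that supports nothing here either. CALD1 was also lower in the high purity library in 3 of 3 lines at that stage (-0.77 ± 0.21), and so was ACTG2 (-1.68 ± 0.70), at 0.180 to 2.41 TPM. ACTC1 had no common order, with the high purity library above the low in H9 (122 and 7.11 TPM) and WTC11 (122 and 113 TPM) and below it in IMR90-4 (260 and 616 TPM), a log2 fold change of 0.77 ± 0.79. At days 4 to 5 ACTC1 was higher in the high purity library in 3 of 3 lines (0.41 ± 0.67), the other way from the multi-omic day 4 wells. ACTA1 at days 2 to 3 was likewise higher in the high purity library in 3 of 3 (1.01 ± 0.57), against -1.78 in the multi-omic wells of day 2. At day 0 the RNA-only order of ACTA1 was mixed, with the high purity library the higher one in 2 of 3 lines. In all, the 3 lines had one order in 15 of the 40 pairs of gene and stage, with the high purity library the higher one in 5 and the lower one in 10. None of these differences was called with 3 lines, which does not show that the classes are alike. One common order of 3 lines is also frequent by chance, and no count over all genes is given beside the 15 of 40. Nothing is read from it, or from the single orders in 3 of 3 lines.

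The day 4 level of ACTC1 in low purity WTC11 differed between the experiments. It was 1453 to 2022 TPM in the 4 multi-omic wells at passage 69 and 6.03 TPM in the RNA-only library of the low purity passage 69 differentiation, which reached 113 TPM on day 6. ACTA2 was at 92.4 to 120 TPM and 0.820 TPM, and TPM1 at 711 to 774 and 67.6 TPM, in the same order. The tables were normalized separately and come from poly(A) and total RNA. Whether both sets of samples are of 1 differentiation is not stated, and the values stand side by side without a test. On day 0 ACTC1 was at 27.1 to 32.3 TPM in the low purity multi-omic wells and 8.02 TPM in the RNA-only library.

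To find genes whose course was most like that of an actin, each gene with at least 10 TPM in some group was centred on its own mean of log2 values over the 16 groups of class and day, and the mean absolute difference was taken, over 13354 genes. Closest to ACTC1 were POPDC2 (0.31), UNC45B (0.38), SYNPO2L (0.50), MYLK3 (0.51) and LMOD1 (0.53), beside a median of 2.47 over all genes. Closest to ACTA2 were RELN (0.88), ADAMTS9 (0.88), IGFBP3 (0.89), LMOD1 (0.93) and CCDC80 (0.96), beside 2.73. ACTA1 had ZFHX3 (0.49) nearest, followed by MIR4473, LOC349160, LOC101928961 and LOC105377378 (0.55 to 0.57), beside a median of 1.38. Among the 10 themselves, TAGLN and CALD1 (0.55) and CNN1 and TPM1 (0.60) ran closest, and ACTC1 was nearer to TPM1 (0.81) than to ACTA2 (1.06).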

How the data were processed

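The multi-omic experiment (56 libraries) and the RNA-only experiment (24 libraries) were each deposited as a table of TPM values and a table of read counts per gene. Reads were aligned with STAR 2.5.3a to hg38 and counted with featureCounts 2.0.3, per the submitters' processing notes. How the TPM were computed, the annotation release and the strand setting are not given in the sources used here. The deposited count of the RNA-only table was used as it stands, after 36 broken lines were left out. Multi-omic counts did not match their TPM columns, so the deposited TPM were tested.

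Gene lengths solved from the RNA-only tables (37194 genes) gave back whole reads for 100% of the multi-omic values above 0 and below 1000 reads, within 0.05 of a read. Multi-omic TPM were scaled by TMM (edgeR 4.0.16), log2-transformed with a pseudocount of 1, which understates changes of low genes, filtered to at least 1 TPM in at least 3 libraries, and fitted with limma 3.58.1 (trend) with 1 mean for each of 16 groups (40 residual degrees of freedom). RNA-only counts were fitted with edgeR's quasi-likelihood test: cell line by stage means with a class term per stage (8 residual degrees of freedom), and stage with differentiation as a block (15). P-values were adjusted by Benjamini-Hochberg over all genes tested. DESeq2 1.42.0, other scalings, pseudocount and filters, recovered reads and leaving out wells or lines were the alternatives. The fits were tested on simulated data. All 10 genes are named; of each other list, at most the 3 called genes of largest fold change in a comparison are given with their fold change. The skeletal muscle regulators, DCN, PDGFRA, POU5F1 and the antisense genes were named after their values were seen. CKM, KDR, PECAM1, CDH5, ESAM, TNNI3, MYH7, MYL2 and MYL7 were singled out from their lists in the same way. The members, lists and tests were chosen with earlier results of these data known, from both tables, so the p-values of the 10 genes are not printed and no list is independent evidence.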

Additional observations from a re-analysis of the deposited data

Results flagged for a closer look

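Among 110 groups of 4 multi-omic wells (1 gene, class and day each), 6 held a well farther from the others than a Dixon test at 95% allows, which chance gives in about 1 in 20 groups. TAGLN was at 100.4 TPM in well 4 of the low purity wells of day 6, against 81.1 to 84.2 TPM in the other 3. CNN1 was at 11.6 TPM in high purity well 4 of day 0, against 7.97 to 8.20 TPM. CALD1 was at 161.5 TPM in high purity well 4 of day 6 (the others at 127 to 132 TPM) and at 469.3 TPM in low purity well 1 of day 13 (388 to 392 TPM). In that same well MYLK was low, at 12.3 TPM against 13.3 to 13.4 TPM. TPM1 was at 887.4 TPM in low purity well 2 of day 13, against 822 to 832 TPM. None of the 30 comparisons of stage changes between the classes in the RNA-only experiment had all lines of one class moving up and all of the other down.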

How the results depend on the processing

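The fold changes of the 10 genes were recomputed under other scalings, pseudocount, filters, tools and blocks. Of these, 1281 kept their side of the threshold, and their direction where they were called. Another 18 passed it newly, 2 no longer passed it and 1 called change turned. The change that turned was ACTC1 on day 4, at +0.61 in place of -4.84 under the count table's own column names. Directions were not compared for changes called in neither fit. With a well or line left out, 1437 kept their side of the threshold in the same sense, 23 passed newly and 20 no longer passed. Counts of members called moved by over 1.5 times in these cases: DESeq2 called 1 gene (TAGLN) between the RNA-only classes at days 6 to 7, where edgeR called 0, and 2 from days 2 to 3 to days 4 to 5, where edgeR called 1. Leaving out wells gave 1 to 2 on day 0 (2 without high purity well 2, TAGLN at -1.00) and 1 to 2 on day 6. Leaving out a line gave 1 to 3 calls from day 0 to days 2 to 3 (1 without IMR90-4), 0 to 2 to days 4 to 5 (2 without H9, 0 without IMR90-4) and 1 to 7 to days 6 to 7 (1 without IMR90-4). In recovered reads, which are not per length, 22 actin shares moved by more than the spread between wells: on day 16 the low purity shares were 76.2% (ACTC1), 17.6% (ACTA2), 4.57% (ACTG2) and 1.60% (ACTA1), and the high purity ones 96.9%, 2.06%, 0.12% and 0.96%. Without scaling, the median of all genes between the classes shifted by -0.15 on day 8, -0.13 on day 13 and -0.12 on day 16. Depth limits the lowest values: ACTG2 rested on 1 to 203 reads per library in the RNA-only experiment.

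The well numbers do not pair the multi-omic samples. Over 24 pairs of a high and a low purity well of the same day and number, deviations from the group means correlated between -0.018 and 0.032. With the well number as a replicate block the members called on day 16 numbered 6 and those on day 4 numbered 7. The block moved 1 member count, from 2 to 3 for day 8 to day 16 in the low purity wells (TAGLN at 1.01). Without the block by line or differentiation, the RNA-only counts were 0 between the classes at each stage and 4, 1 and 6 for the 3 stage steps, against 3, 1 and 7 with it.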
